A study of Mus musculus with 5 samples.

Results

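SOX transcription factors were examined in mouse pituitaries at embryonic day e12.5, through 10 genes chosen by name: Sox2 and Sox21, Sox4, Sox11 and Sox12, Sox5 and Sox6, and Sox8, Sox9 and Sox10. They are 10 of the 19 numbered SOX genes in the all-gene table, which lists 20097 gene symbols. The 2 knockout libraries, 13 and 16, came from embryos labelled Itgb1 f/f; Pitx1-cre, and were set against 3 control libraries, 9, 10 and 12, from littermates labelled Itgb1 f/f. All 5 embryos thus carried floxed alleles of Itgb1, which encodes the integrin subunit beta 1, all were of the strain B6;129, and the Cre transgene was the difference. Pitx1-cre acts in oral ectoderm and its derivatives, including the pituitary, so blood vessels, mesenchyme, neural tissue and neural crest in a dissected gland are not its main targets. The labels call the material epithelial pituitary cells and give no sorting step.

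SOX proteins bind DNA through a shared HMG box and bend it. The SOXB1 factor SOX2 holds progenitors of Rathke's pouch and neural progenitors in an undifferentiated state, and the SOXB2 factor SOX21 opposes it in neural tissue. The SOXC factors SOX4, SOX11 and SOX12 act as cells leave the progenitor state, in neurons and in mesenchyme. SOX9 starts cartilage formation, where the SOXD factors SOX5 and SOX6 assist it, and also marks progenitors in many epithelia, while its SOXE relatives SOX8 and SOX10 act in neural crest, with SOX10 needed for glia and melanocytes.

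The 10 genes can be told apart by sequence, which matters because their HMG boxes are alike. The lines below give the 27 bases that encode the first conserved stretch of the HMG box in the longest coding transcript of each gene in GENCODE M21. Capitals mark bases that differ from the most frequent base at that position among the 10 genes.
Sox2: AggcccatgaacgccttcatggtAtgg
Sox21: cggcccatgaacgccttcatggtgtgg
Sox4: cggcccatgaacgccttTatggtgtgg
Sox11: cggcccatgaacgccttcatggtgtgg
Sox12: cggccGatgaacgcGttcatggtgtgg
Sox5: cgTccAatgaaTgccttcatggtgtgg
Sox6: cgAccAatgaaTgcGttcatggtTtgg
Sox8: cggcccatgaaTgccttcatggtgtgg
Sox9: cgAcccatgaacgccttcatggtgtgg
Sox10: Aggcccatgaacgccttcatggtgtgg
Sox11 and Sox21 carried the same 27 bases, and Sox6 differed from the most frequent bases at 5 positions. The longest run shared exactly by the transcripts of a pair, over all pairs of these genes with each other and with the other SOX genes, was 48 bases, between Sox4 and Sox11. Sox9 and Sox10 shared a run of 44 bases. Read length was not used here, and reads inside such runs could have been split between relatives.

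Gene structure separated the members into long and short regions. In GENCODE M21, Sox2, Sox4, Sox11 and Sox21 have a single exon in each coding transcript, and Sox12 has a single exon in 1 of its 2. Sox5 has up to 15 exons and Sox6 up to 17. The deposited region (build mm9) spanned 566.6 kb for Sox6 (chromosome 7, 122615258 to 123181858) and 380.34 kb for Sox5 (chromosome 6, 143777345 to 144157688), introns included. The other 8 regions spanned 1.66 to 8.78 kb. Regions stopped 400 bases inside each end of the genes Sox4, Sox5 and Sox12, by the gene positions that the authors' deposited table of changes lists, so that the Sox4 region covered 72.9% of its gene and the Sox5 region 99.8%. The Sox2 region lay inside a region of 116.8 kb named Mir1897. As deposited, that wider region was at 209.09 tags in library 13 and 277.27 in library 16, against 141.82, 158.18 and 124.55 in the controls. These values include background, which grows with region length and was highest in library 16, as given below. They therefore do not show whether the wider region shared the low level of Sox2 in library 16. All regions are listed on the plus strand, so reads of genes that overlap cannot be told apart.

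Levels are given as deposited, in tags per 10000000 total tags of a library. Each value was a whole multiple of 10/11, so 1 read is worth 10/11 of a tag. Recovered reads over listed genes numbered 5507288 (library 13) and 4480809 (library 16), against 5445240 to 6143263 among controls. Library 16 stood apart. Olfactory and vomeronasal receptor genes, which most tissues do not use, carried 1.497 tags per kilobase there, against 0.472 in library 13 and 0.157 to 0.392 in the controls. Itgb1 itself was at 446.36 in library 13 and 186.36 in library 16, against 272.73 to 430.91 in the controls, so its level did not check the label of library 13. Rescaled values, from which that background was subtracted before TMM factors were applied, placed Itgb1 at 273.67 in library 13 and 126.53 in library 16, against 365.93 to 436.82 among controls. All 8 markers of pituitary epithelium were present, summing to 1709.1 (library 13) and 581.8 (library 16), against 484.6 to 796.4 among controls. Markers of other cell types were present too. Directions drawn from library 13 therefore rest on its label.

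**Figure D1:**
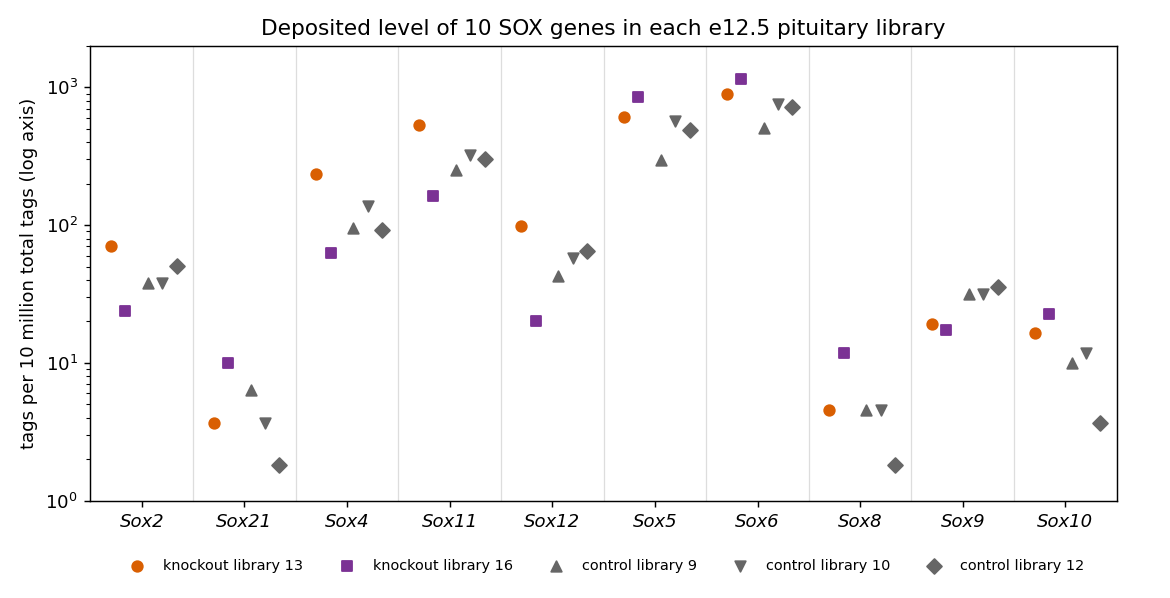
Deposited level of each SOX gene (log axis, tags per 10000000 total tags) in knockout libraries 13 (circle) and 16 (square) and in the 3 control libraries (grey), 1 point per library. Sox9 lay below every control in both knockout libraries, while Sox2, Sox4, Sox11 and Sox12 lay above every control in library 13 and below every control in library 16.

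Between genes, levels were set side by side per kilobase of region. In the controls Sox4 had the highest level per kilobase, 50.5 ± 11.8 (SD, n = 3), followed by Sox11 with 38.2 ± 5.01, Sox2 with 25.6 ± 4.44, Sox12 with 15.3 ± 3.19 and Sox9 with 6.96 ± 0.441. The ranges of neighbours in this order did not overlap among the controls. The other 5 genes lay between 0.911 (Sox8) and 1.31 (Sox21) tags per kilobase on average, and their ranges overlapped. For Sox5 and Sox6 this level is diluted by introns, since it is taken over the whole gene.

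The question of the comparison was whether loss of Itgb1 in Pitx1-cre cells went with other levels of these genes. None of the 10 genes passed an adjusted p under 0.05 in limma, and none had an unadjusted p under 0.05 in that fit, where 5636 of 19313 genes did. Over all tested genes 0 were called in either direction, which is a share of 0% higher and 0% lower. The lowest adjusted p among the 10 genes was 0.241, for Sox10. The quasi-likelihood test of edgeR on recovered reads also called none of the 8 genes it kept, and gave 1 of them, Sox9, an unadjusted p under 0.05. edgeR gave 0.557% of all genes such a p on the lower side, and called 0% in each direction. DESeq2 called none of the 10 genes, gave 7 of them no adjusted p, and called 2.51% of the 996 genes that had one, all lower. The labels name separate biological replicates, but with 2 knockout libraries that disagreed the spread within the group was wide. On the deposited scale the median gene had a log2 change of 0.97, so changes below are also given relative to that median, which the limma p-values do not take off.

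Sox9 was the member that lay on the same side in both knockout libraries on each scale examined, and it lay below the controls. It was at 19.09 in library 13 and 17.27 in library 16, against 31.82, 31.82 and 35.45 in the controls (33.0 ± 2.10, SD, n = 3). The knockout and control values did not overlap. In reads, library 13 held 21 and library 16 held 19, with 95% Poisson intervals of 11.8 to 29.2 and 10.4 to 26.97 tags, against 35, 35 and 39 reads in the controls, where the lowest interval began at 22.2. These intervals cover counting error only, and those of the knockout libraries overlapped those of the controls. The limma log2 change was -0.83 with a standard error of 0.65 (adjusted p = 0.353), or -1.80 relative to the median gene. Few genes showed this pattern: 39 of 19313, or 0.202%, lay below every control in both knockout libraries on deposited values, and 1.15% did with background alone subtracted.

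Sox9 lay below every control in both knockout libraries on the other scales too, with a size that depended on the scale. The log2 ratios to the control mean were -0.76 in library 13 and -0.90 in library 16 on deposited values, -0.87 and -1.55 with background alone subtracted, -1.52 and -2.05 with TMM factors alone, and -1.63 and -1.60 on rescaled values. On rescaled values Sox9 was at 10.9 in library 13 and 11.1 in library 16, against 46.9, 26.9 and 35.8 in the controls. The groups again did not overlap, although on this scale 7.93% of 14570 genes lay below every control in both. Genes with regions under 5 kb, as that of Sox9, had a median log2 ratio of 0.14 in library 13 and -0.79 in library 16 on this scale. The log2 change on that scale was -1.61 with a standard error of 0.43, at an unadjusted p of 0.00647 and an adjusted p of 0.813 in limma, where 0.851% of genes were lower at an unadjusted p under 0.05. edgeR on all libraries gave -1.81 at an unadjusted p of 0.00347 and an adjusted p of 0.781. Leaving out library 16 gave -1.61 in edgeR (adjusted p = 1.0), and leaving out library 13 gave -2.14 (adjusted p = 0.000836), in a fit where 23.6% of all genes were called lower and the lone knockout library is assumed to vary like the controls. In bulk tissue, fewer cells that express a gene and less RNA of it per cell cannot be told apart.

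Ratios within a library do not depend on scaling between libraries, although they do depend on background. Of the reads of Sox9 and Sox11 together, Sox9 took 3.47% in library 13 (95% Wilson interval 2.28 to 5.24) and 9.64% in library 16 (6.26 to 14.6), against 11.3%, 8.93% and 10.5% in controls 9, 10 and 12. Set against Sox2 it took 21.2% in library 13 (14.3 to 30.3) and 42.2% in library 16 (29.0 to 56.7), against 45.5%, 45.5% and 41.1% in the controls. The Wilson intervals cover counting error only. In library 16 background was 41.2% of the Sox9 value, against 7.08% for Sox11 and 10.5% for Sox2. With background subtracted, the share of Sox9 beside Sox11 was 3.09% in library 13 and 6.33% in library 16, against 8.52% to 11% in the controls. Beside Sox2 it was then 19.4% and 32.4%, against 40.7% to 44.8%. Both knockout libraries lay below every control in these subtracted shares, while before subtraction library 16 lay within the range of the controls in both.

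Markers of other tissues that use Sox9 were read beside it. Cartilage markers (4 of 4 present, none at 0 in every library) had a summed level of 414.6 in library 13 and 489.1 in library 16, against 239.1 to 340.0 in the controls. With background subtracted these sums were 332.9 and 229.0, against 194.3 to 312.8. Markers of hypothalamus and infundibulum (4 of 4 present) had a summed level of 191.8 in library 13 and 124.6 in library 16, against 208.2 to 443.6 in the controls, and with background subtracted 151.1 and 18.2 against 186.0 to 409.8. Fgf10 made up most of that sum, at 138.18 and 92.73, against 139.09 to 344.55, while Sox3, another of the 4, was at 8.18 in library 13, within the controls. The part of these markers in the Sox9 difference was not tested.

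Sox2, Sox4, Sox11 and Sox12 formed the clearest group of members that varied together. Each lay above every control in library 13 and below every control in library 16, a pattern shown by 6.98% of all tested genes on deposited values. With background alone subtracted the same 4 members showed it, with 23.6% of all genes. Sox11 was at 531.82 and 161.82 in libraries 13 and 16, against 250, 324.55 and 302.73 in the controls. Sox4 was at 234.55 and 62.73, against 95.45, 138.18 and 92.73. Sox12 was at 99.09 and 20, against 42.73, 58.18 and 65.45. In all 3 SOXC genes, then, the knockout libraries lay on opposite sides of the controls, and a knockout mean describes neither of them. Sox2 was at 70.91 and 23.64, against 38.18, 38.18 and 50.91, so the progenitor factor did the same. Markers of pituitary epithelium, with background subtracted, summed to 1653.5 in library 13 and 405.5 in library 16, against 454.2 to 775.2 in the controls, which is the same arrangement, and their part in these values was not tested.

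Fitted over both knockout libraries these opposite deviations largely cancelled. The limma log2 changes were -0.03 for Sox2, 0.18 for Sox4, 0.01 for Sox11 and -0.28 for Sox12, with standard errors of 0.54 to 0.61 and adjusted p of 0.725 to 0.987. In library 13 the log2 ratios to the control mean were 0.74 for Sox2, 1.13 for Sox4, 0.87 for Sox11 and 0.85 for Sox12, where the median gene was at 0.80. In library 16 they were -0.80, -0.76, -0.84 and -1.41 in the same order, where the median gene was at 1.28. Relative to the median gene the 4 genes therefore lay between -0.06 and 0.32 in library 13 and between -2.68 and -2.04 in library 16.

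On rescaled values 3 of the 4 genes lay within the range of the controls in library 13, and all 4 lay below it in library 16. There Sox11 was at 340.8 in library 13 and 164.3 in library 16, against 288.5 to 380.2 in the controls. Sox12 was at 62.8 and 15.9, against 50.9 to 66.9, and Sox2 at 45.3 and 23.1, against 33.7 to 57.9. Sox4 was at 150.7 and 65.02, against 95.3 to 145.5, and was the only 1 of the 4 still above every control in library 13, as were 23.9% of all genes. In library 16 their log2 ratios to the control mean were -0.98 for Sox2, -0.87 for Sox4, -0.98 for Sox11 and -1.86 for Sox12. On that scale 42.1% of all genes also lay below every control there. Genes with regions under 5 kb, as those of Sox2, Sox4 and Sox12, had a median log2 ratio of -0.79 in library 16. Genes with regions of 5 to 50 kb, as that of Sox11, had one of -0.01. Limma on rescaled values without library 13 called Sox11 and Sox12 lower (adjusted p of 0.0363 and 0.0189), with 15.5% of all genes lower and 6.84% higher. Without library 13 edgeR called these 4 genes and Sox9 lower (adjusted p from 7.03e-05 for Sox12 to 0.000836 for Sox9). That fit also called 23.6% of all genes lower and 20.9% higher. Without library 16 it called no member, and 0.0191% of all genes, all lower.

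The proportions among the SOXC genes were read before background was subtracted. Sox11 took 61.4% of the reads of the trio in library 13 (95% Wilson interval 58.3 to 64.5) and 66.2% in library 16 (60.3 to 71.6), against 62.3% to 65.7% in the controls. Sox4 took 27.1% and 25.7%, against 20.1% to 26.5%, and Sox12 took 11.4% and 8.18%, against 11% to 14.2%. Sox11 thus lay below every control in library 13 and above every control in library 16. Sox4 lay above every control in library 13, and Sox12 below every control in library 16. For each gene the intervals of the knockout libraries overlapped those of at least 1 control. Background made up 27.2% of the Sox12 value in library 16, against 5.14% for Sox4 and 7.08% for Sox11. Subtracting it would therefore lower the Sox12 share there further.

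The promoters of these 4 genes are shown because their levels moved together; the RNA data do not measure promoter activity. Each line gives the 250 bases before the start, from RefSeq, on the coding strand. Capitals mark matches on either strand to 4 motifs: the CCAAT box, the TATA box with letters TATAAA, the GC box with letters GGGCGG, and the SOX core with letters ACAAAG.
Sox2 promoter, GRCm38.p6 chr3:34649745-34649994, plus strand: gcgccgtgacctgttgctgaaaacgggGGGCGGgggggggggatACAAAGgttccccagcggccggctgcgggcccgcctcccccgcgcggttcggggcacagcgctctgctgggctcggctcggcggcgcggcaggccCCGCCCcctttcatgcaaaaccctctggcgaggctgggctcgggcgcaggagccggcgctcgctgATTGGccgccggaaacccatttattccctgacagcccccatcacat
Sox4 promoter, GRCm38.p6 chr13:28953700-28953949, minus strand: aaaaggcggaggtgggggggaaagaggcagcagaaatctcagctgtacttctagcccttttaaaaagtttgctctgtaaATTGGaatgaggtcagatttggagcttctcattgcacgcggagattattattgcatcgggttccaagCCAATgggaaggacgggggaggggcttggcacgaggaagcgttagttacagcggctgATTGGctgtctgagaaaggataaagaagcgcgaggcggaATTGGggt
Sox11 promoter, GRCm38.p6 chr12:27342719-27342968, minus strand: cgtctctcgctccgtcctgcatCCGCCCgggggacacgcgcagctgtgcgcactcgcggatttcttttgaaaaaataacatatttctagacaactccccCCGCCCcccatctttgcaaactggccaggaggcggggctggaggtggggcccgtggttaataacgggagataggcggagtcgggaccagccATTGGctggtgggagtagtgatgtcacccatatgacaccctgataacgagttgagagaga
Sox12 promoter, GRCm38.p6 chr2:152398047-152398296, minus strand: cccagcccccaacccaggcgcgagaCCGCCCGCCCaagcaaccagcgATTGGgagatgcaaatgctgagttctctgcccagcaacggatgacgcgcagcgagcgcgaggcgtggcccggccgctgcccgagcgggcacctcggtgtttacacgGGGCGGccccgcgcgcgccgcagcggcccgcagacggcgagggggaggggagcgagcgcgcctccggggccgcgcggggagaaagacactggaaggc
A CCAAT match was present in all 4, and in 33.8% of 32851 promoters of the same length. The GC box was present in Sox2, Sox11 and Sox12 and in 32.7% of all promoters, and matches of Sox12 overlap each other. The SOX core was present in Sox2 and in 16.5% of all, and the TATA box in none of the 4 and in 12.4% of all. The GC content was 72.0% for Sox2, 50.8% for Sox4, 58.0% for Sox11 and 74.4% for Sox12, against a median of 52.4% over all promoters. These matches describe the sequence and are not evidence of binding. Of the 10 members, 8 had a promoter in the table.

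The SOXD genes Sox5 and Sox6 were arranged differently in library 16 on deposited values. Sox6 was at 892.73 in library 13 and 1151.82 in library 16, against 505.45, 763.64 and 725.45 in the controls. Sox5 was at 607.27 and 852.73, against 295.45, 570 and 494.55. Both genes thus lay above every control in both knockout libraries, as did 50.2% of all tested genes. The limma log2 changes were 0.72 for Sox5 (adjusted p = 0.336) and 0.63 for Sox6 (adjusted p = 0.402), which are -0.25 and -0.34 relative to the median gene. In library 16 the background estimated from receptor genes amounted to 66.8% of the Sox5 value and 73.6% of the Sox6 value, against 29.6% and 29.9% in library 13 and 12.1% to 33.2% in the controls.

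The direction of the SOXD genes turned with the scale. On rescaled values Sox6 was at 403.5 in library 13 and 331.6 in library 16, against 551.1, 485.7 and 656.6 in the controls, so it lay below every control in both. Sox5 was at 276.0 in library 13 and 309.5 in library 16, against 302.7, 377.5 and 448.6, and overlapped the controls in library 16. The log2 changes there were -0.61 for Sox6 and -0.35 for Sox5, and neither passed the limma test (adjusted p of 0.813 each). Before background was taken off, TMM factors alone also placed both genes below every control in both knockout libraries, as they did 6.8% of all genes. Before background was subtracted, Sox5 took 40.5% of the reads of the pair in library 13 and 42.5% in library 16. The controls ranged from 36.9% to 42.7%, so both libraries lay within them. That share does not carry over to subtracted values in library 16. With background alone subtracted, Sox5 was at 283.3 there, within the 197.5 to 434.9 of the controls. Sox6 was at 303.5, below the 359.5 to 636.6 of the controls.

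**Figure D2:**
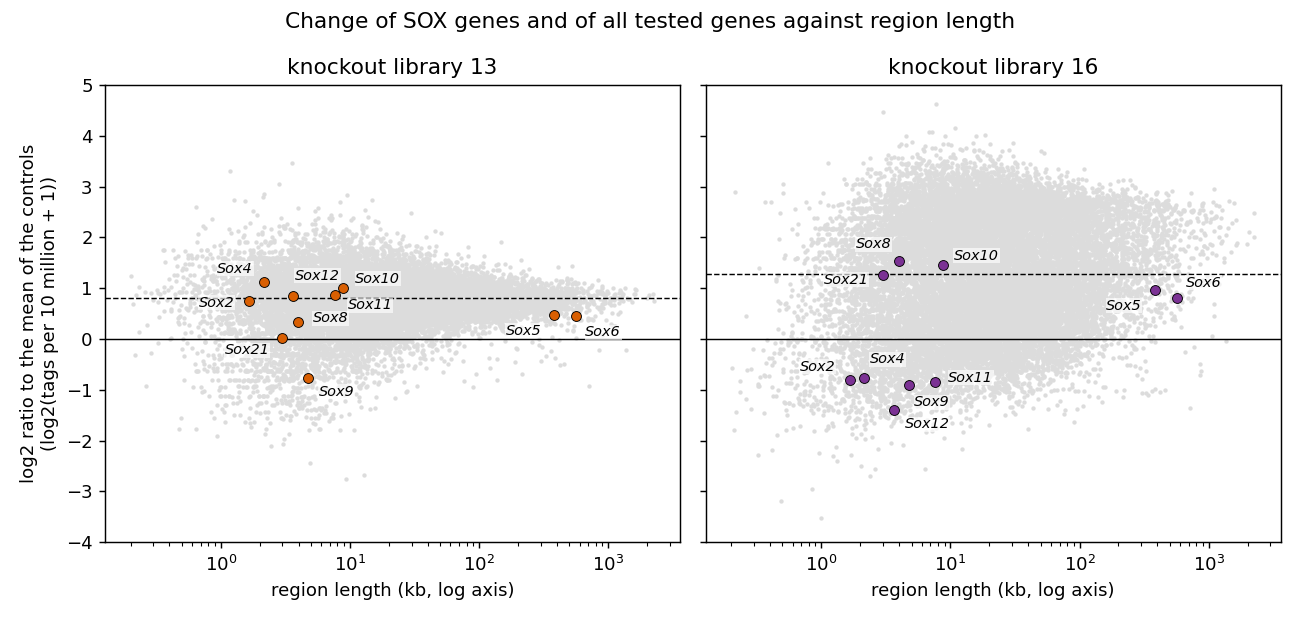
Log2 ratio of each tested gene to the mean of the controls on deposited values, against the length of its region (log axis), in knockout library 13 (left) and 16 (right). Grey points are the 19313 tested genes, named points the SOX genes, and the dashed line is the median gene, at 0.80 in library 13 and 1.28 in library 16, where Sox2, Sox4, Sox9, Sox11 and Sox12 lay below 0.

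Members of like region length lay on both sides of the controls in library 16. Genes with regions over 200 kb had a median log2 ratio of 1.74 there and those under 5 kb one of 0.94, while in library 13 both medians were 0.76. Sox5 and Sox6, at 0.96 and 0.82 in library 16, lay below the median of their length class, as did Sox2, Sox4, Sox9, Sox11 and Sox12 below that of theirs. Sox8 and Sox21, with regions under 5 kb, lay above the median of their class at 1.53 and 1.26. Sox10, at 1.45, lay above the 1.28 of regions of 5 to 50 kb, the class that also holds Sox11. Background made up 5.14% of the library 16 value of Sox4, 7.08% of Sox11, 10.5% of Sox2, 27.2% of Sox12 and 41.2% of Sox9, and these 5 genes lay below every control in that library, as did 7.86% of all genes. It made up 44.9% of Sox21, 50.6% of Sox8, 57.8% of Sox10 and more of Sox5 and Sox6, and these 5 lay above every control, as did 72.9% of all genes. The share is taken of the library 16 value itself, so the 2 measures are not independent.

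Sox8, Sox10 and Sox21 were low in each library. Sox10 was at 16.36 in library 13 and 22.73 in library 16, against 10, 11.82 and 3.64 in the controls, and lay above the controls in both, also with background alone subtracted, as did 22% of all genes on that scale. Sox8 was at 4.55 and 11.82, against 4.55, 4.55 and 1.82, and Sox21 at 3.64 and 10, against 6.36, 3.64 and 1.82. Sox8 and Sox21 overlapped the controls in library 13 and exceeded them in library 16. All values of these 2 genes rest on 2 to 13 reads. On rescaled values Sox10 was at 7.88 and 10.5, against 11.9, 7.51 and 2.34, so the groups overlapped, and Sox8 and Sox21 had means under 5 and were not fitted. Markers of neural crest glia, of which Sox10 is itself 1 of 4, summed to 138.2 in the library labelled 13 and 124.6 in that labelled 16, against 53.6 to 76.4 among controls. With background subtracted the sums were 117.5 and 61.3, against 42.4 to 59.8, and their part in the Sox10 values was not tested. The limma log2 changes on deposited values were 0.93 for Sox8, 1.23 for Sox10 and 0.64 for Sox21, close to or below the 0.97 of the median gene except for Sox10, and none passed (adjusted p of 0.422, 0.241 and 0.574).

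**Figure D3:**
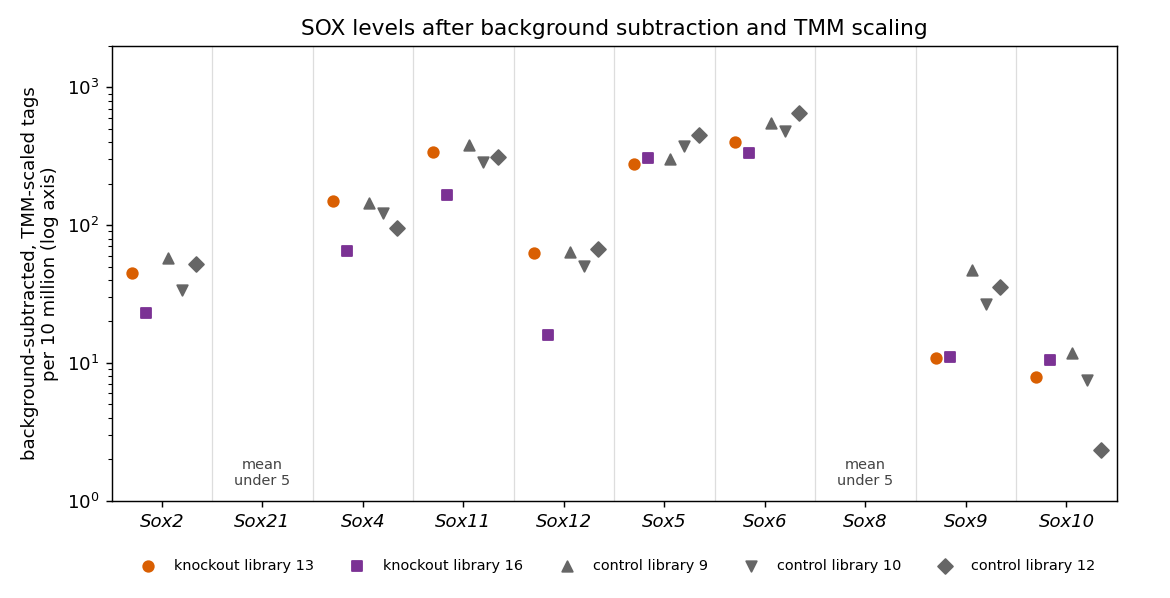
Level of each SOX gene after subtraction of background and scaling with TMM factors (log axis, tags per 10000000), in knockout libraries 13 (circle) and 16 (square) and in the 3 controls (grey). Sox9 and Sox6 lay below every control in both knockout libraries, Sox2, Sox4, Sox11 and Sox12 in library 16, and Sox8 and Sox21 had means under 5 and are not drawn.

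The authors' deposited table of changed genes lists 3 of the 10 members among its 1140 genes, where the all-gene table has 20097 symbols. Of the listed genes, 643 have a log2 fold change above 0 and 496 one below 0. In the authors' deposited table Sox4 has a log2 fold change of -0.82 (p = 0.000121), with a value of 13 for KO and 23 for WT. The authors' deposited table gives Sox12 a log2 fold change of -0.14 (p = 0.00273), with 19 for KO and 21 for WT. The authors' deposited table gives Sox5 a log2 fold change of 1.44 (p = 0.00232), with 19 for KO and 7 for WT. In the limma fits here the log2 change of Sox5 was 0.72 on deposited values and -0.35 on rescaled values. The unit of those values, the libraries behind them and the adjustment of the p are not given in the sources used here. Sox9, which lay below every control in both knockout libraries, is not among the genes listed there.

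The other 9 SOX genes of the table were mostly low. None passed the limma test, and 2 of them, Sox13 and Sox30, had an unadjusted p under 0.05, both higher (adjusted p of 0.157 and 0.131). Sox1, a SOXB1 gene of neural progenitors, had 2 regions. The longer, of 50.16 kb, was at 146.36 in both knockout libraries, against 115.45, 154.55 and 89.09 in the controls. On rescaled values it was at 79.2 and 77.9, against 157.2, 121.0 and 83.8, below every control in both. Background made up 51.3% of its library 16 value. The shorter, of 3237 bases, was at 32.73 in library 13 and 9.09 in library 16 as deposited, against 24.55, 25.45 and 10.91. It thus lay above every control in library 13 and below every control in library 16. Sox3, the SOXB1 gene needed in the hypothalamus for pituitary development, was at 8.18 and 2.73, against 8.18, 5.45 and 8.18. Sox13, the SOXD relative of Sox5 and Sox6, was at 59.09 and 95.45, against 30.91, 47.27 and 20.91. The SOXF genes of endothelium were Sox7, at 4.55 and 11.82 against 3.64, 6.36 and 10, Sox17, at 9.09 in both against 0.91, 8.18 and 7.27, and Sox18, at 4.55 and 10.91 against 1.82, 2.73 and 3.64. Sox14 was at 3.64 and 5.45 against 4.55, 6.36 and 2.73, Sox15 at 0 and 6.36 against 1.82, 3.64 and 0.91, and the testis gene Sox30 at 25.45 and 60.91 against 15.45, 27.27 and 5.45. The limit for the 0 of Sox15 in library 13, set at 3 reads, is 2.73 tags per 10000000, and the upper end of its exact 95% Poisson interval is 3.35.

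Genes of the programmes in which these factors act were read in the same fits, and none passed an adjusted p under 0.05 on either scale. On deposited values the genes with an unadjusted p under 0.05 were 2 of 17 pouch progenitor genes, 2 of 13 neuronal genes, 5 of 14 cartilage genes, 9 of 17 neural crest, glial and melanocyte genes and 4 of 12 endothelial genes, all higher, and 2 of 10 hypothalamic and infundibular genes, 1 in each direction. Over all tested genes 29.2% were higher at that threshold and 0.0207% lower, so the counts of higher genes, other than the 9 of 17, were near or below the share of all genes. Medians below are relative to the median gene, on rescaled values. The 8 members fitted there had medians of -0.03 in library 13 and -0.90 in library 16. Pouch progenitor genes had medians of 0.34 and -0.67. Of these, 10 of 17 lay above every control in library 13 (23.9% of all genes) and 11 of 17 below every control in library 16 (42.1% of all genes). Among the SOXC genes only Sox4 lay above every control in library 13 on this scale. In library 16 Sox4, Sox11 and Sox12 all lay below every control. Six6 and Pitx1, transcription factors of the early pouch, were among the leading genes of that list by level per kilobase. Six6 was at 282.73 and 54.55 on deposited values, against 71.82, 153.64 and 119.09 in the controls.

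Several hypothalamic and infundibular genes lay below the controls, as Sox9 did. Of 9 fitted, 6 lay below every control in both knockout libraries, against 7.93% of all genes, while on deposited values 3 of 10 did. The medians on rescaled values were -1.42 in library 13 and -0.76 in library 16. Nkx2-1, a regulator of the ventral hypothalamus, was at 28.18 and 18.18 on deposited values, against 37.27, 53.64 and 36.36 in the controls. Rax, which specifies the infundibulum, was at 17.27 and 10.91, against 23.64, 40 and 20.91, and Six3, a forebrain factor also held by the pouch list, at 79.09 and 20.91, against 45.45, 54.55 and 60. Shh, a signal of the ventral midline in the same list and named after its values were seen, was at 176.36 and 505.45, against 80, 142.73 and 61.82, above every control in both. Neuronal genes, the usual targets of SOXC factors, had medians of -0.21 and -0.34. Stmn1, a microtubule regulator, was at 115.45 in library 13 and 31.82 in library 16, against 42.73, 50.91 and 61.82, the order seen for Sox11. Nefl was at 92.73 and 29.09, against 31.82, 89.09 and 52.73.

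By their medians, cartilage and neural crest genes were arranged differently from Sox9 in library 16, though some genes of each list lay below the controls there. Cartilage genes had medians of -0.44 in library 13 and 0.90 in library 16, and 2 of 11 lay below every control in both. In library 16, 3 lay below every control and 6 above. Col2a1, the main cartilage collagen and a direct SOX9 target, was at 310.91 and 171.82 on deposited values, against 173.64, 230 and 295.45, and on rescaled values at 192.0 and 141.4, against 255.0, 196.4 and 300.1, below every control in both. As deposited, Col9a2 was at 36.36 and 42.73, against 29.09, 32.73 and 30, and Col11a2 at 24.55 and 90.91, against 20, 26.36 and 16.36. On rescaled values the log2 changes over both knockout libraries were -0.52 for Col9a2 and 0.46 for Col11a2. Neural crest, glial and melanocyte genes had medians of -0.06 and 1.51. In library 16, 9 of 11 lay above every control and 2 below, where 41.5% and 42.1% of all genes did. On deposited values Erbb3, a receptor of the glial lineage and a SOX10 target, was at 97.27 and 63.64, against 33.64, 58.18 and 48.18. Ednrb was at 90 and 74.55, against 49.09, 62.73 and 52.73, and Tfap2b at 49.09 and 108.18, against 23.64, 50.91 and 39.09. On rescaled values the log2 changes over both knockout libraries were 0.04 for Erbb3, -0.35 for Ednrb and 0.35 for Tfap2b. Foxd3, a crest marker, had at most 1.82 in any library and was at 0 in library 16 and in 2 controls. Endothelial genes had medians of -0.20 and 0.65. As deposited, Cdh5 was at 121.82 in both knockout libraries against 46.36, 76.36 and 72.73, above every control in both, as were 50.2% of all genes. Egfl7 was at 47.27 and 31.82 against 16.36, 49.09 and 29.09, and Cldn5 at 9.09 and 3.64 against 1.82, 5.45 and 6.36. On rescaled values the log2 changes over both knockout libraries were 0.15 for Cdh5 and -0.40 for Egfl7.

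**Figure D4:**
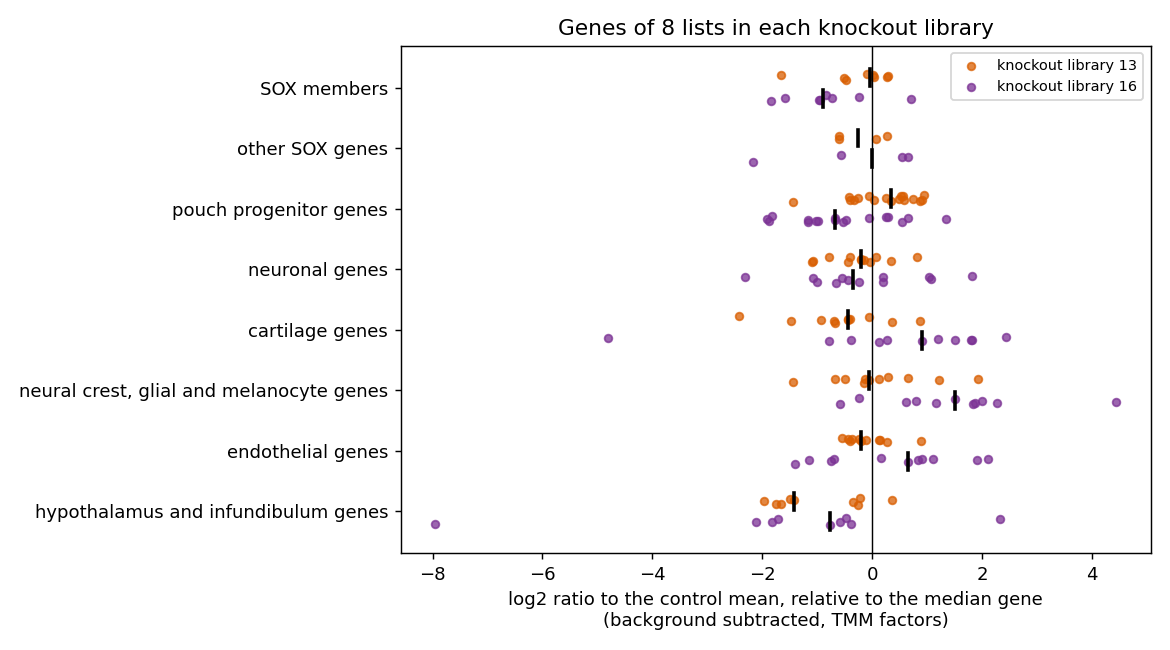
Log2 ratio to the control mean, relative to the median gene, for the fitted genes of 8 lists in knockout library 13 (orange) and knockout library 16 (purple), on rescaled values; black bars are medians. SOX genes had medians of -0.03 in library 13 and -0.90 in library 16, and hypothalamic and infundibular genes had medians below 0 in both.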

How the data were processed

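RNA was measured in 2 knockout and 3 control pituitaries; ribosomal RNA was removed and libraries kept the strand, per the labels' protocols. Bowtie2, HOMER, edgeR and the build mm9 appear in the submitters' processing notes, without roles. The authors deposited a normalized signal per gene region, scaled to 10000000 total tags in each library, per the file headers. The authors' deposited table of changed genes gives a p-value, a log2 fold change, 2 linear fold (ratio) columns and 1 number for each genotype, treated as a score. The longest region was kept per symbol (838 symbols had several). The main test was limma 3.58.1 under R 4.3.3, with intensity trend, on values as log2(value + 1), which understates changes of low genes, over 19313 genes with a mean of at least 1, Benjamini-Hochberg adjusted at 0.05. All 10 members passed that filter. Whole reads (within 0.01, 100.00% of values) were recovered for counts in edgeR 4.0.16, where 0 genes of 15623 were called, and in DESeq2 1.42.0, where 25 were. Background per kilobase came from 393 autosomal olfactory and vomeronasal receptor genes and was subtracted with a floor of 0; fits that also used TMM factors kept a mean of at least 5 (14570 genes), called rescaled values. Scripts were tested on simulated data. Sequences came from RefSeq (GRCm38.p6) and GENCODE M21, matched by symbol; their coordinates were not mixed with mm9. The members and lists were chosen with earlier results of these data known. Named genes were the members, the other SOX genes, genes overlapping a member and the 3 genes of highest mean level per kilobase in each list; others, such as Foxd3, were named after their values were seen. Some genes that this rule names are not reported here. Alternatives were scaling, background, filters, pseudocounts, tests and leaving out each library.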

Additional observations from a re-analysis of the deposited data

How the results depend on the processing

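No paired analysis was possible because the groups share no replicate numbers. The count of called genes, 0, stayed at 0 in limma under other pseudocounts, filters, scalings and with each library left out, and in edgeR on all libraries. DESeq2 called 25, all lower, of 996 genes with an adjusted p. Chosen after the data were seen, limma with background subtracted and TMM factors called 3256 genes without library 13 and 2 without library 16, and edgeR called 7945 and 3. The cause was not tested. The median log2 change of all genes was 0.97 as deposited, 0.42 with background subtracted and 0.04 with TMM factors. The number of members outside the control range on the same side in both knockout libraries was 4 on deposited values (Sox9 below, Sox5, Sox6 and Sox10 above). It was 2 with background subtracted and 2 with TMM factors added, 3 with TMM factors alone, and 4 to 10 with a library left out (10 without library 13, 8 without library 16, where 1 knockout library is compared). Sox9 was among them in each case. Of all genes, 50.2% lay above every control in both libraries on deposited values, and 0.202% below. With background subtracted these shares were 22% and 1.15%, and with TMM factors added 8.11% and 7.93%. They were 8.5% and 6.8% with TMM factors alone. On deposited values 72.9% of all genes lay above every control in library 16 and 7.86% below, against 73.3% and 1.46% in library 13. Relative log2 changes of the members kept their sign and call in 171 alternatives, passed the test with the same sign in 7 and turned in 20. Sox4, at -0.79, was at 0.32 without library 16, and likewise at 0.288 with background subtracted and TMM factors and at 0.315 in edgeR. Sox11, at -0.96, was then at 0.062, 0.028 and 0.049, and Sox12, at -1.25, at 0.041, 0.017 and 0.033. Sox8, at -0.04, was at 0.049 with TMM factors, 0.141 with background subtracted, 0.009 with a pseudocount of 0.5, 0.040 in unfiltered edgeR, 0.039 in DESeq2, 0.253 without library 13 (0.435 in edgeR) and 0.261 without control 9. Sox10, at 0.26, was at -0.127 without control 12. Sox21, at -0.33, was at 0.151 without control 9 and 0.064 in edgeR without library 13. The lowest and highest values with a library left out were -0.127 and 0.565 for Sox10, -2.122 and 0.062 for Sox11, -2.685 and 0.041 for Sox12, -2.085 and -0.066 for Sox2, -0.790 and 0.151 for Sox21, -2.041 and 0.318 for Sox4, -0.393 and -0.092 for Sox5, -0.465 and -0.195 for Sox6, -0.482 and 0.261 for Sox8, -2.176 and -1.566 for Sox9. Sox8, Sox15 and Sox21, with few reads, are limited by depth.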
